A study of Mus musculus with 12 samples.

Results

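The 10 genes described here make prostaglandins or sense them: the cyclooxygenases Ptgs1 and Ptgs2, the prostaglandin E synthases Ptges, Ptges2 and Ptges3, the prostaglandin D synthase Ptgds, and the 4 prostaglandin E2 receptors Ptger1, Ptger2, Ptger3 and Ptger4. They were chosen by name, and all 10 were found among the 41091 genes listed in each count table. All 10 also held enough counts to be tested in every comparison. The libraries were total RNA of hippocampal mini-slices from wild-type C57BL/6 mice of 2 to 3 months, with the dentate gyrus trimmed away and 2 hr of recovery in the chamber. Chemical LTP was induced with 50 uM forskolin for 5 min, then with forskolin, 30 mM KCl and 10 mM Ca2+ until 10 min had passed, and controls received 0.2% DMSO over the same 10 min. Slices were frozen 1 hr or 3 hr later, which gave 4 groups of 3 libraries (1 hr control, 1 hr LTP, 3 hr control, 3 hr LTP), and each animal supplied an LTP and a control library at a time point.

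Prostaglandin synthesis begins when phospholipases or lipases free arachidonate from membrane lipids. A cyclooxygenase turns it into prostaglandin H2, and terminal synthases convert that into prostaglandin E2, D2 and other prostanoids, which leave the cell and act on G-protein-coupled receptors. Ptgs1 is the enzyme usually described as constitutive, whereas Ptgs2 is the inducible one and in forebrain is known as a neuronal immediate early gene that responds to synaptic activity. Among the E2 receptors, Ptger2 and Ptger4 raise cAMP, the second messenger that forskolin raises directly, Ptger3 lowers it, and Ptger1 acts through calcium.

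Whole mini-slices were sequenced, so fewer cells of a type and less RNA per cell cannot be told apart. Library totals ran from 37118382 to 50815001 counts, so that 3 counts, the upper limit that a count of 0 allows, correspond to 0.0584 to 0.0791 CPM (counts scaled to a common library size by TMM) for counting error alone. The 1 hr control library of animal 2 was set aside, as the study's methods set it aside as an outlier of clustering, and the 1 hr controls therefore number 2 in the tests. Its values are printed below beside those of the other 1 hr controls. With so few libraries, groups that do not overlap are described only, and their share over all genes was not counted. Markers of dentate granule cells were still present, with a summed level over 5 genes of 210 to 215 CPM in the 1 hr controls used, 162 to 258 CPM in the 1 hr LTP libraries, 187 to 224 CPM in the 3 hr controls and 176 to 293 CPM in the 3 hr LTP libraries. Their part in the members' values was not tested.

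The promoter windows of the 3 genes called, after LTP or between the 3 hr and 1 hr controls, are shown first. They come from RefSeq on GRCm38.p6, which held an entry for 9 of the 10 genes, and cover the 250 bases before each annotated start, 5′ to 3′ on the strand of the gene. Capitals mark matches to the letters searched.
Ptgs2, chr1:150099781-150100030, plus strand: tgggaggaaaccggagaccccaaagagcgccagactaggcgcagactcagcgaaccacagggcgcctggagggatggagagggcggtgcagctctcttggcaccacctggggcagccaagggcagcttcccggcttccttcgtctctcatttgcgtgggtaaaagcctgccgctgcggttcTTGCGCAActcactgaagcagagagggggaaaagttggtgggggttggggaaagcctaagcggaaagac
Ptgs2, the first 30 bases from the start on, chr1:150100031-150100060, in the 5′ untranslated part of exon 1: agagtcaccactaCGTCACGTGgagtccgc
Ptges, chr2:30903298-30903547, minus strand: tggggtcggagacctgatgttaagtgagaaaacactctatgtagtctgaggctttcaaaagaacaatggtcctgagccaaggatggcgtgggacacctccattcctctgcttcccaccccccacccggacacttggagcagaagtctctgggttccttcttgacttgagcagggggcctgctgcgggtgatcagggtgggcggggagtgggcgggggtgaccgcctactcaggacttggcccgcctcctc
Ptger4, chr15:5244188-5244437, minus strand: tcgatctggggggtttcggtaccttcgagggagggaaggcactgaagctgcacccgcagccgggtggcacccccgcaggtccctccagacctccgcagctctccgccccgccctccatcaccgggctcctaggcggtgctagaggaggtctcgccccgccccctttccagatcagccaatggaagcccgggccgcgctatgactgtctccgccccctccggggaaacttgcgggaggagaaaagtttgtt

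The windows were searched on both strands for the full cAMP response element TGACGTCA, its half-site TGACG, the E-box CACGTG, the kappaB motif, TATAA, and the C/EBP palindrome TTGCGCAA. The search ran over 300 bases, the 250 printed and the 50 that follow the start. The C/EBP letters were added after the windows had been read. In Ptgs2, the half-site on the reverse strand, at positions 14 to 18 counted from the start, and the E-box, at 17 to 22, overlapped by 2 bases. The C/EBP letters stood at -69 to -62. Of 32851 RefSeq windows of the same length, 20.8% held the half-site, 7.15% the E-box and 0.183% the C/EBP palindrome. The Ptges and Ptger4 windows held none of the 6 motifs. Full response elements, which 1.79% of all windows held, were in none of the 9 members' windows, and the same was true of the kappaB motif (4.79%) and of TATAA (24.9%). Elsewhere among the members, Ptges2 held 1 E-box at -77 to -72 and Ptges3 held 1 half-site at 12 to 16. The RefSeq start of Ptges lies 26566 bases inside the GENCODE M21 gene, whose far end belongs to a transcript annotated there as processed_transcript, that is, with no coding sequence. Matches describe letters only, and no binding was measured here. Positions count from the annotated starts, also for the Ptgs2 bases printed from the start on. Where transcription starts in these slices was not measured, so the side of the start on which a match lies is by annotation only.

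Between genes, levels were compared as CPM per kb of exon over the 11 fitted libraries. Lengths took in all annotated exons. Whether untranslated exons were counted is not settled, and the order and the ratios per kb depend on it. Ptgds, which makes prostaglandin D2 and is abundant in brain meninges, choroid plexus and oligodendrocytes, had the highest mean, 74.3 CPM per kb. Ptges3, also known as the HSP90 co-chaperone p23, followed with 66.7 CPM per kb, and Ptgs2 with 53. A wide gap separated these 3 genes from Ptges2 at 4.5, Ptgs1 at 2.44 and Ptges at 2.07 CPM per kb. The receptors were lowest, with Ptger4 at 0.763, Ptger1 at 0.12, Ptger3 at 0.103 and Ptger2 at 0.053 CPM per kb. Ranges of neighbours overlapped in this order at several places: Ptgds (60.3 to 88.6) with Ptges3 (59.7 to 79.5), Ptges3 with Ptgs2 (35.1 to 81.9), Ptgs1 (2.17 to 2.77) with Ptges (1.02 to 3.56), and Ptger1, Ptger3 and Ptger2 with each other. Ptges2 (3.55 to 5.12) overlapped with Ptges at its upper end, and Ptger4 (0.579 to 0.934) with none of the others.

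**Figure D1:**
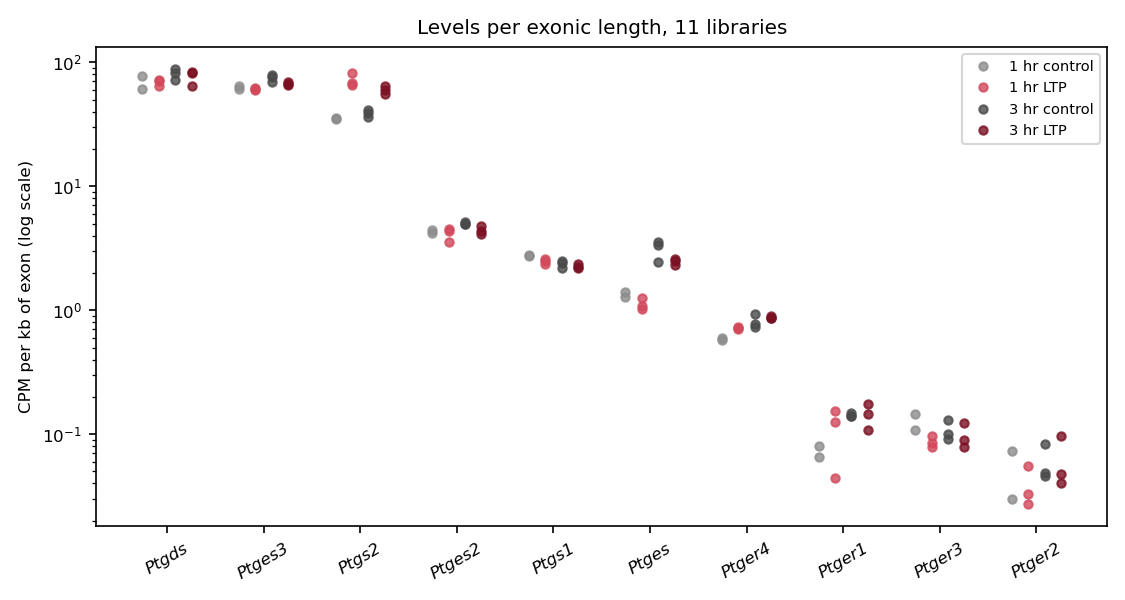
Levels of the 10 genes in CPM per kb of exon on a log axis, with 1 point for each of the 11 fitted libraries, coloured by group and ordered by mean. Ptgds, Ptges3 and Ptgs2 sit at means of 53 to 74.3 CPM per kb, and Ptger1, Ptger3 and Ptger2 at 0.053 to 0.12.

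Within the cyclooxygenases, the inducible form predominated per length in every library. The ratio of Ptgs2 to Ptgs1, both per kb, was 12.9 and 12.8 in the 1 hr controls (13.6 in the library set aside) and 28.2, 32.9 and 26.3 after LTP at 1 hr. At 3 hr it was 17.1, 15.5 and 16.8 in controls and 23.6, 29.3 and 26.8 after LTP. The LTP libraries thus lay above the controls at both times without overlap. Among the E synthases, Ptges3 made up 89.1% to 92.7% of the summed level per kb in the 12 libraries. Ptger4 made up 64.5% to 81.6% of the summed level of the 4 receptors.

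The main comparison asked which of these genes differed between LTP and control slices at each time. Ptgs2 rose at both times, about 2.05-fold at 1 hr and 1.56-fold at 3 hr, and it was the only one of the 10 to be called at either time. No synthase and no receptor passed the test after LTP. Calls needed more than a 1.2-fold change together with p under 0.1 in edgeR's quasi-likelihood test, after Benjamini-Hochberg adjustment over all genes. At 1 hr, 1 of the 10 was called and over all genes 140 of 17736 (0.789%). At 3 hr, 1 of the 10 was called and over all genes 1155 of 17508 (6.6%). The median log2 fold change of the 10 was -0.04 at 1 hr and -0.05 at 3 hr, and that of all genes tested was 0 at both.

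**Figure D2:**
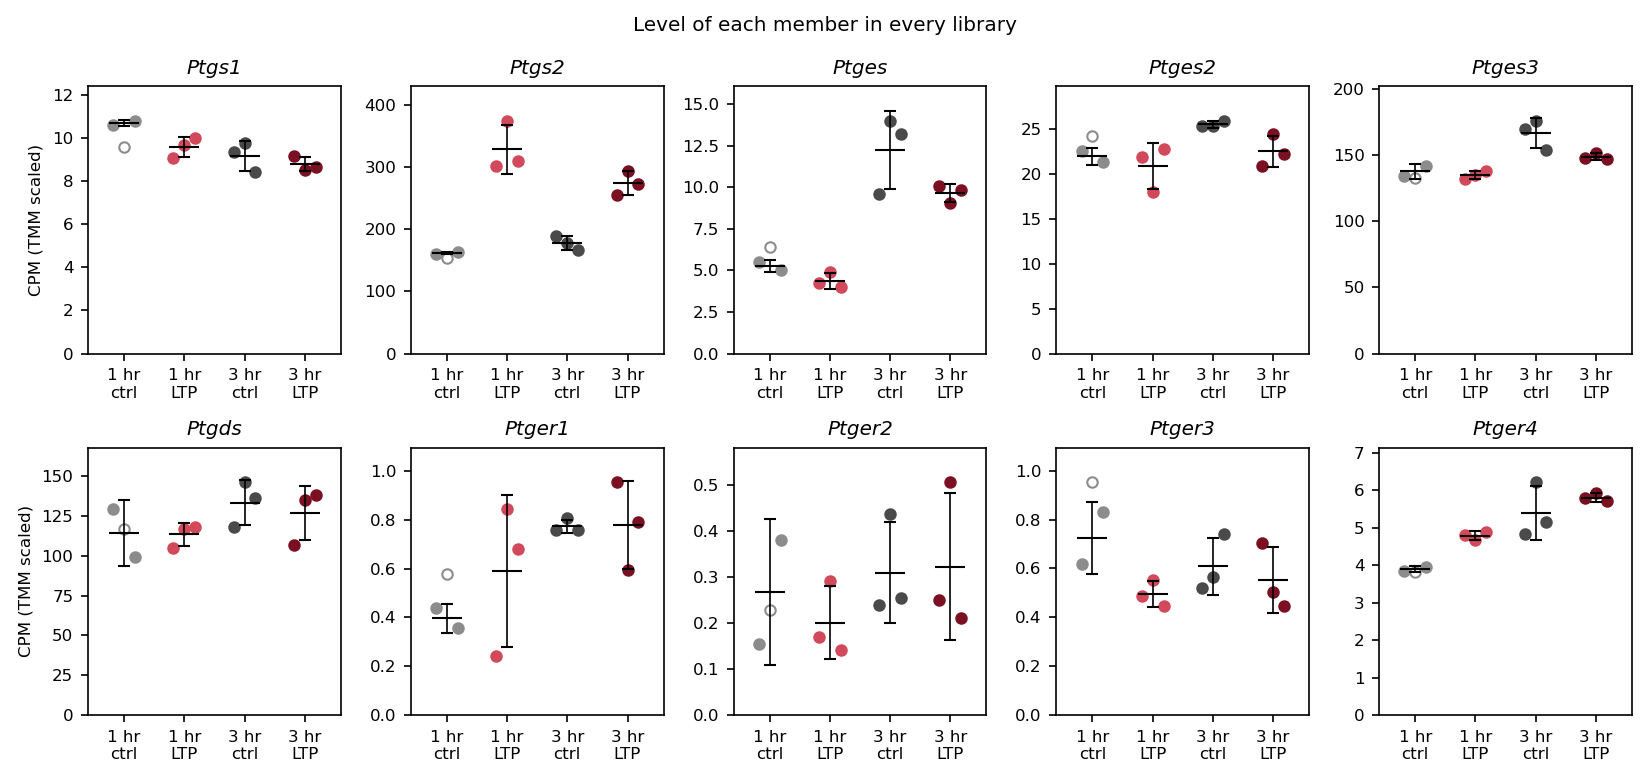
CPM of each gene in every library, in 4 groups, with the axis of each panel starting at 0. Filled points are fitted libraries, the open point is the 1 hr control library set aside, and bars give the mean and SD of the fitted ones. Ptgs2 separates LTP from control at both times (302 to 375 against 161 to 163 CPM at 1 hr), and Ptges separates 3 hr from 1 hr.

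Ptgs2 (ENSMUSG00000032487.8, GRCm38 chr1:150100031-150108227, plus strand) stood at 161 and 163 CPM in the 1 hr controls of animals 1 and 3, and at 154 CPM in the library of animal 2 that was set aside. After LTP it stood at 302, 375 and 311 CPM at 1 hr. Each LTP library was above every control library, and the group means were 162 ± 1.58 CPM (SD, n = 2) and 329 ± 39.8 CPM (SD, n = 3). The log2 fold change was 1.03 (SE 0.0903, adjusted p = 1.29e-05, edgeR quasi-likelihood), and with the library of animal 2 included it was 1.06 (edgeR, adjusted p = 6.05e-06). By size this was rank 44 of the 138 rises called at 1 hr.

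At 3 hr, Ptgs2 stood at 189, 178 and 167 CPM in controls and at 256, 295 and 274 CPM after LTP. Again the groups did not overlap, with means of 178 ± 10.8 and 275 ± 19.6 CPM (SD, n = 3 each). The log2 fold change was 0.64 (SE 0.0703, edgeR quasi-likelihood adjusted p = 0.00361), rank 325 of 888 rises by size. Within animals, LTP was above control in 6 of 6. The log2 ratios, taken on CPM with 0.1 added, were 0.91, 1.29 and 0.93 for the 3 animals at 1 hr, the second of them against the library set aside. They were 0.44, 0.73 and 0.71 at 3 hr, so the highest ratio at 3 hr lay below the lowest at 1 hr.

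Whether the LTP effect differed between the times was tested directly as an interaction. For Ptgs2 the effect was smaller at 3 hr by 0.39 on the log2 scale: the difference was -0.39 (SE 0.125), with an unadjusted p of 0.00816 in the model across all genes and an edgeR quasi-likelihood adjusted p of 0.533. This did not pass, and the adjusted p ranged from 0.166 to 0.991 over the alternatives. None of the 10 genes was called for the difference by edgeR, DESeq2 or limma-voom, and 1 of them, Ptgs2, had an unadjusted p under 0.05. Over all genes 11 of 18584 were called (0.0592%), and 1225 had an unadjusted p under 0.05, with 80 called by DESeq2. The 4 group ranges of Ptgs2 were ordered as 1 hr control, 3 hr control, 3 hr LTP and 1 hr LTP, with no overlap between neighbours. The 2 control groups did not differ beyond the threshold (log2 fold change 0.11, edgeR quasi-likelihood adjusted p = 0.422), and the LTP groups were not tested against each other.

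**Figure D3:**
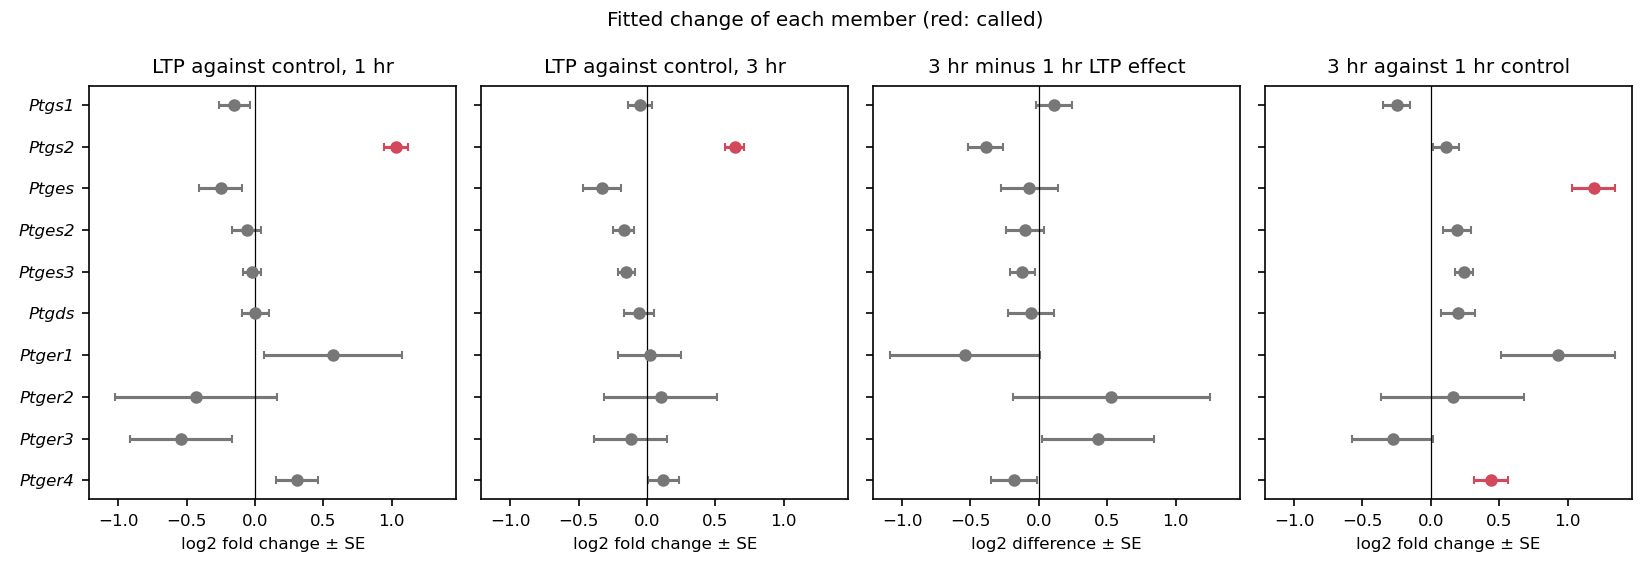
Fitted log2 fold change with its SE for the 10 genes in the 4 comparisons, called genes in red. Ptgs2 stands at 1.03 and 0.64 after LTP, Ptges at 1.19 and Ptger4 at 0.44 between the controls, and no gene is called for the difference between the LTP effects.

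Ptgs1 (ENSMUSG00000047250.8), the other cyclooxygenase, stood at 10.6 and 10.8 CPM in the 1 hr controls (9.58 set aside) and at 9.09, 9.68 and 10 CPM after LTP at 1 hr. At 3 hr it stood at 9.34, 9.76 and 8.43 CPM in controls and at 9.18, 8.53 and 8.68 CPM after LTP. The fitted log2 fold changes were -0.15 (SE 0.113) at 1 hr and -0.05 (SE 0.0889) at 3 hr, with edgeR quasi-likelihood adjusted p of 0.92 and 0.815. The 2 fitted controls at 1 hr lay above the LTP libraries, but the library set aside lay among them. The cyclooxygenases therefore differed in outcome: Ptgs2 passed the test at both times and Ptgs1 at neither, and the contrast between the genes was not itself tested.

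Ptges (ENSMUSG00000050737.12), the inducible microsomal synthase that is often coupled to Ptgs2, was not called after LTP and its fitted values were below 0. At 1 hr it stood at 5.5 and 5.02 CPM in controls (6.41 set aside) and at 4.25, 4.93 and 4 CPM after LTP. At 3 hr it stood at 9.58, 14 and 13.2 CPM in controls and at 10.1, 9.03 and 9.87 CPM after LTP. All 3 LTP libraries lay below the controls at 1 hr, whereas at 3 hr the control library of animal 1 lay among the LTP libraries. The log2 fold changes were -0.25 (SE 0.158, edgeR quasi-likelihood adjusted p = 0.878) and -0.33 (SE 0.139, adjusted p = 0.229). Without that 3 hr control library the 3 hr value was -0.48 with an edgeR adjusted p of 0.0906, which passed. Within animals, the log2 ratios at 1 hr were -0.36, -0.37 and -0.32. Those at 3 hr were 0.08, -0.63 and -0.42, with animal 1 alone above 0.

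Neither of the other E synthases was called after LTP. Ptges2 (ENSMUSG00000026820.4), a membrane-associated synthase, stood at 22.6 and 21.3 CPM in 1 hr controls (24.2 set aside) and at 21.9, 18 and 22.8 CPM after LTP. At 3 hr its controls stood at 25.3, 25.3 and 25.9 CPM and its LTP libraries at 20.9, 24.4 and 22.2 CPM. The 3 hr groups did not overlap, and the 3 hr log2 fold change of -0.17 (SE 0.0775) had an edgeR quasi-likelihood adjusted p of 0.27. Ptges3 (ENSMUSG00000071072.7) stood at 134 and 142 CPM in 1 hr controls (133 set aside) and at 132, 135 and 138 CPM after LTP. At 3 hr it stood at 170, 176 and 154 CPM in controls and at 148, 152 and 147 CPM after LTP. Again the 3 hr groups did not overlap, and the value of -0.15 (SE 0.0631) did not pass (edgeR quasi-likelihood adjusted p = 0.237). All 3 E synthases had fitted values below 0 at 3 hr, with none called. Over all genes tested at 3 hr, 8662 of 17508 were above 0.

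Ptgds (ENSMUSG00000015090.8) varied as much between libraries of a group as between groups. It stood at 129 and 99.4 CPM in 1 hr controls (117 set aside) and at 105, 117 and 118 CPM after LTP. At 3 hr it stood at 118, 146 and 136 CPM in controls and at 107, 135 and 138 CPM after LTP. The groups overlapped at both times, and the 3 hr log2 fold change was -0.06 (SE 0.11, edgeR quasi-likelihood adjusted p = 0.805).

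Of the receptors, only Ptger4 was above 3 CPM. Ptger4 (ENSMUSG00000039942.10), which couples to stimulatory G protein, stood at 3.85 and 3.96 CPM in the 1 hr controls (3.83 set aside) and at 4.81, 4.67 and 4.89 CPM after LTP. The 1 hr groups did not overlap, and the within-animal log2 ratios of 0.31, 0.28 and 0.3 lay close together. Fitted on the log2 scale, the change was 0.31 (SE 0.153, edgeR quasi-likelihood adjusted p = 0.793), and it stayed between 0.28 and 0.32 over the alternatives without passing in any. At 3 hr the controls stood at 4.84, 6.21 and 5.14 CPM and the LTP libraries at 5.79, 5.93 and 5.7 CPM. Here the groups overlapped, with a log2 fold change of 0.12 (SE 0.114, edgeR quasi-likelihood adjusted p = 0.595). Other genes on the opposite strand share 16.5% of its exonic bases, 4.74% of those of Ptger2 and 3.81% of those of Ptgs1. The share for Ptger1 is not reported here, so these values need not span the range of the members.

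The other receptors rested on few reads, from 6 to 42 counts in the fitted libraries, and their group ranges mostly overlapped. Ptger1 (ENSMUSG00000019464.5), the calcium-coupled receptor, stood at 0.439 and 0.355 CPM in 1 hr controls (0.579 set aside) and at 0.243, 0.844 and 0.682 CPM after LTP. At 3 hr it stood at 0.757, 0.806 and 0.759 CPM in controls and at 0.954, 0.593 and 0.791 CPM after LTP. Whether the counting used strand is not given in the sources used here, so reads counted for Ptger1 may in part come from the other strand, and its values are uncertain.

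Ptger2 (ENSMUSG00000037759.5) stood at 0.155 and 0.379 CPM in 1 hr controls (0.228 set aside), at 0.17, 0.29 and 0.141 CPM in 1 hr LTP, at 0.238, 0.436 and 0.253 CPM in 3 hr controls and at 0.25, 0.505 and 0.211 CPM in 3 hr LTP. Ptger3 (ENSMUSG00000040016.11), the receptor that lowers cAMP, stood at 0.62 and 0.829 CPM in 1 hr controls (0.952 set aside), at 0.486, 0.554 and 0.447 CPM in 1 hr LTP, at 0.519, 0.566 and 0.739 CPM in 3 hr controls and at 0.704, 0.505 and 0.448 CPM in 3 hr LTP. For Ptger3 at 1 hr the LTP libraries lay below all controls, at -0.54 on the log2 scale (SE 0.372, edgeR quasi-likelihood adjusted p = 0.903). The SE of the LTP effect ran from 0.228 to 0.592 on the log2 scale for these 3 receptors. Differences of that size, and larger ones, could therefore be missed with these libraries. The parts of depth and of library number in these SEs were not separated.

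**Figure D4:**
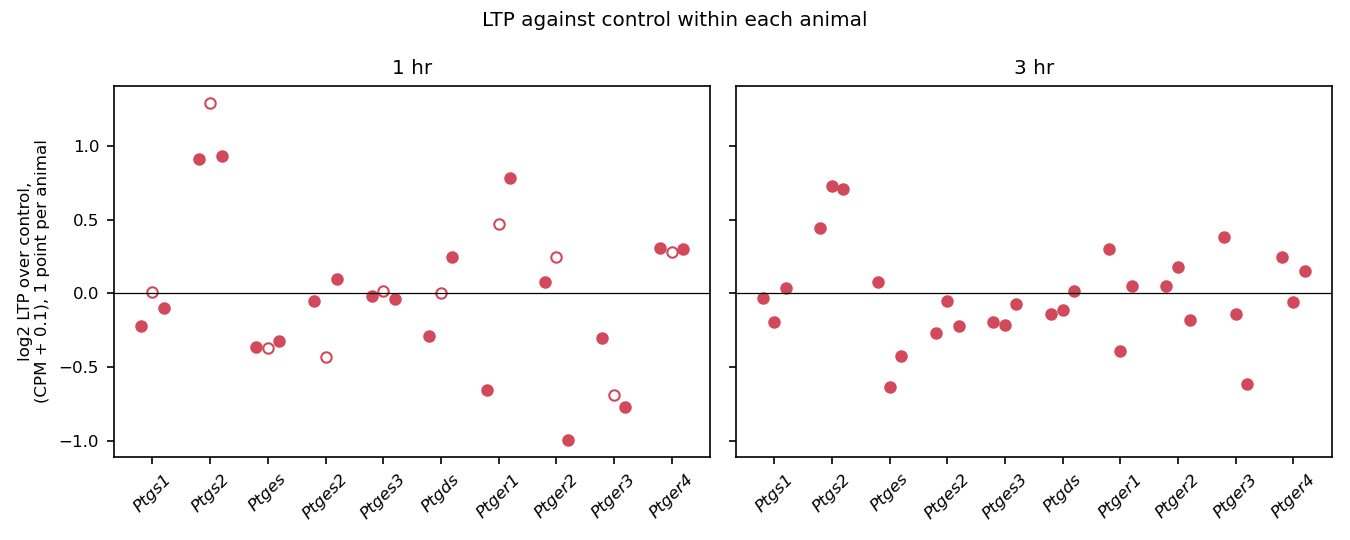
Log2 ratio of LTP over control within each animal, on CPM with 0.1 added, for the 10 genes at 1 hr and 3 hr. Open points use the control library set aside. Ptgs2 is above 0 in 6 of 6 animals, Ptger4 lies at 0.28 to 0.31 at 1 hr, and the low receptors scatter on both sides of 0.

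The comparison of the controls asked what differed between 1 hr and 3 hr without LTP induction. Ptges and Ptger4 were higher at 3 hr, 2.29-fold and 1.35-fold, so that 2 of the 10 genes were called. Over all genes 6102 of 18584 were called (32.8%), 2987 of them higher and 3115 lower. The median log2 fold change of the 10 was 0.19, and that of all genes tested was -0.02. Each time point is assumed to have had its own animals, so time and animal cannot be told apart.

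Ptges had a log2 fold change of 1.19 (SE 0.156, edgeR quasi-likelihood adjusted p = 0.000184), and every 3 hr control lay above every 1 hr control, with means of 12.3 ± 2.36 (SD, n = 3) and 5.26 ± 0.339 CPM (SD, n = 2). With the library of animal 2 included it was 1.12 (edgeR adjusted p = 0.000113). By size it was rank 387 of the 2987 genes higher at 3 hr. Ptger4 had a log2 fold change of 0.44 (SE 0.127, edgeR quasi-likelihood adjusted p = 0.0189), with means of 5.4 ± 0.717 (SD, n = 3) and 3.9 ± 0.0761 CPM (SD, n = 2). With that library included the value was 0.48 (edgeR adjusted p = 0.00699). Its rank among the 2987 was 1903.

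Several others were close to the thresholds. Ptges3 differed by 0.24 on the log2 scale (SE 0.0663) with an edgeR quasi-likelihood adjusted p of 0.0141, but at 1.18-fold it missed the fold minimum, and in 8 alternatives it passed, among them the fit with all libraries (0.29). Ptger1 had 0.93 (SE 0.418) with an edgeR quasi-likelihood adjusted p of 0.106 and passed in 6 alternatives. Ptgs1 had -0.25 (SE 0.0967, edgeR quasi-likelihood adjusted p = 0.0633), short of the fold minimum. It passed without the 3 hr control library of animal 2 (-0.27, edgeR adjusted p = 0.0881). Ptgds had 0.2 (SE 0.126, edgeR quasi-likelihood adjusted p = 0.256) and passed without the 1 hr control library of animal 1 (0.43, edgeR adjusted p = 0.0618). Ptges2, Ptger2 and Ptger3 had 0.19, 0.16 and -0.28 and were not called.

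Marker lists of other cells moved in both directions between the same controls, where 32.8% of all genes were called. Of 6 microglia markers 5 were called lower at 3 hr, and their summed level was 202 to 232 CPM against 290 to 301 CPM at 1 hr. Of 5 mural cell markers 3 were lower (110 to 118 against 157 to 161 CPM), and of 5 endothelial markers 2 (85.9 to 90.1 against 93.3 to 104 CPM). Of 5 oligodendrocyte markers 2 were higher (7423 to 8994 against 5603 to 7042 CPM), as were 2 of 4 CA1 pyramidal cell markers (442 to 527 against 361 to 415 CPM). Calls by edgeR in the other lists numbered 0 to 2 each. After LTP at 1 hr, when Ptgs2 rose, 1 of 5 mural markers, Myh11, was lower (summed level 134 to 148 against 157 to 161 CPM) and 0 of 5 endothelial markers were called by edgeR, DESeq2 or limma-voom, 3 of them with an unadjusted p under 0.05. No microglia marker was called at either time after LTP. The part of these cells in the members' changes was not tested.

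The rest of the pathway was followed in 52 other genes, of which 38 were tested at 1 hr, 40 at 3 hr and 44 between the controls. At 1 hr none of the 38 was called by edgeR, DESeq2 or limma-voom after LTP, and 1 had an unadjusted p under 0.05 (2.63%, against 6.71% of all genes tested). At 3 hr edgeR called 1 of 40 (2.5%, against 6.6% of all genes tested), limma-voom the same 1 and DESeq2 also Dagla (log2 fold change 0.4, adjusted p = 0.0704). An unadjusted p under 0.05 was found for 9 of them (22.5%, against 20.2% of all genes tested). Dagla, a lipase that makes 2-arachidonoylglycerol, was named here for that call. The gene called by edgeR was lower: Cbr3, a carbonyl reductase that can reduce prostaglandin E2, stood at 7.61, 6.82 and 7.49 CPM in controls and at 5.72, 5.65 and 4.99 CPM after LTP. The groups did not overlap, and the log2 fold change was -0.41 (SE 0.0999, edgeR quasi-likelihood adjusted p = 0.0621). The median log2 fold change of the pathway genes tested was -0.02 at 1 hr and -0.03 at 3 hr.

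On the supply side, Pla2g4a, the cytosolic phospholipase A2 that releases arachidonate, stood at 4.03 and 3.36 CPM in the 1 hr controls (2.94 set aside) and at 3.57 to 4 CPM after LTP at 1 hr, and had a log2 fold change of 0.05 (SE 0.17). Its start lies 138741 bases from that of Ptgs2. Mgll, the lipase that supplies much of the brain's arachidonate, stood at 149 and 165 CPM in 1 hr controls (176 set aside) and at 147 to 164 CPM after LTP, with a log2 fold change of -0.03 (SE 0.0744). Neither was called in any of the 4 comparisons, and the same held for Slco2a1, the prostaglandin transporter. Ptgs2os, a non-coding gene on the opposite strand whose start lies 68 bases from that of Ptgs2, was not called at either time. Its log2 fold change was -0.17 (SE 0.264) at 1 hr, and at 3 hr it was 0.31 (SE 0.201). Of this head-to-head pair only Ptgs2 passed, and the contrast between them was not tested.

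Between the controls, edgeR called 4 of the 44 pathway genes higher at 3 hr and 3 lower (15.9%, against 32.8% of all genes tested). DESeq2 called the same 7. Limma-voom called these and also Tbxa2r, the thromboxane receptor (log2 fold change 1.19, adjusted p = 0.0681), and Pla2g4b, a phospholipase A2 (1.8, adjusted p = 0.0893). Neither was called by edgeR or DESeq2, and both rested on few counts. In the fitted controls, Tbxa2r held 3 to 12 counts at 1 hr and 16 to 19 at 3 hr. Pla2g4b held 1 to 9 and 12 to 21, and 66.51% of its exonic bases are shared on the same strand. The higher ones by edgeR were Fam213b, a prostamide and prostaglandin F synthase (log2 fold change 0.82), Aloxe3, an epidermis-type lipoxygenase (0.77), Cbr3 (0.37) and Pla2g15, a lysosomal phospholipase (0.28). The lower ones were Hpgd (-1.24), Plcb1, a phospholipase C (-0.46), and Alox8, a lipoxygenase (-0.37). Hpgd, the dehydrogenase that inactivates prostaglandins, fell from 3.25 and 4.45 CPM in the 1 hr controls (3.06 set aside) to 1.82, 1.81 and 1.4 CPM in the 3 hr controls (SE 0.184, edgeR quasi-likelihood adjusted p = 0.000388), while Ptges rose between the same libraries. After LTP Hpgd was not called, with log2 fold changes of -0.27 (SE 0.186) at 1 hr and 0.1 (SE 0.174) at 3 hr.

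**Figure D5:**
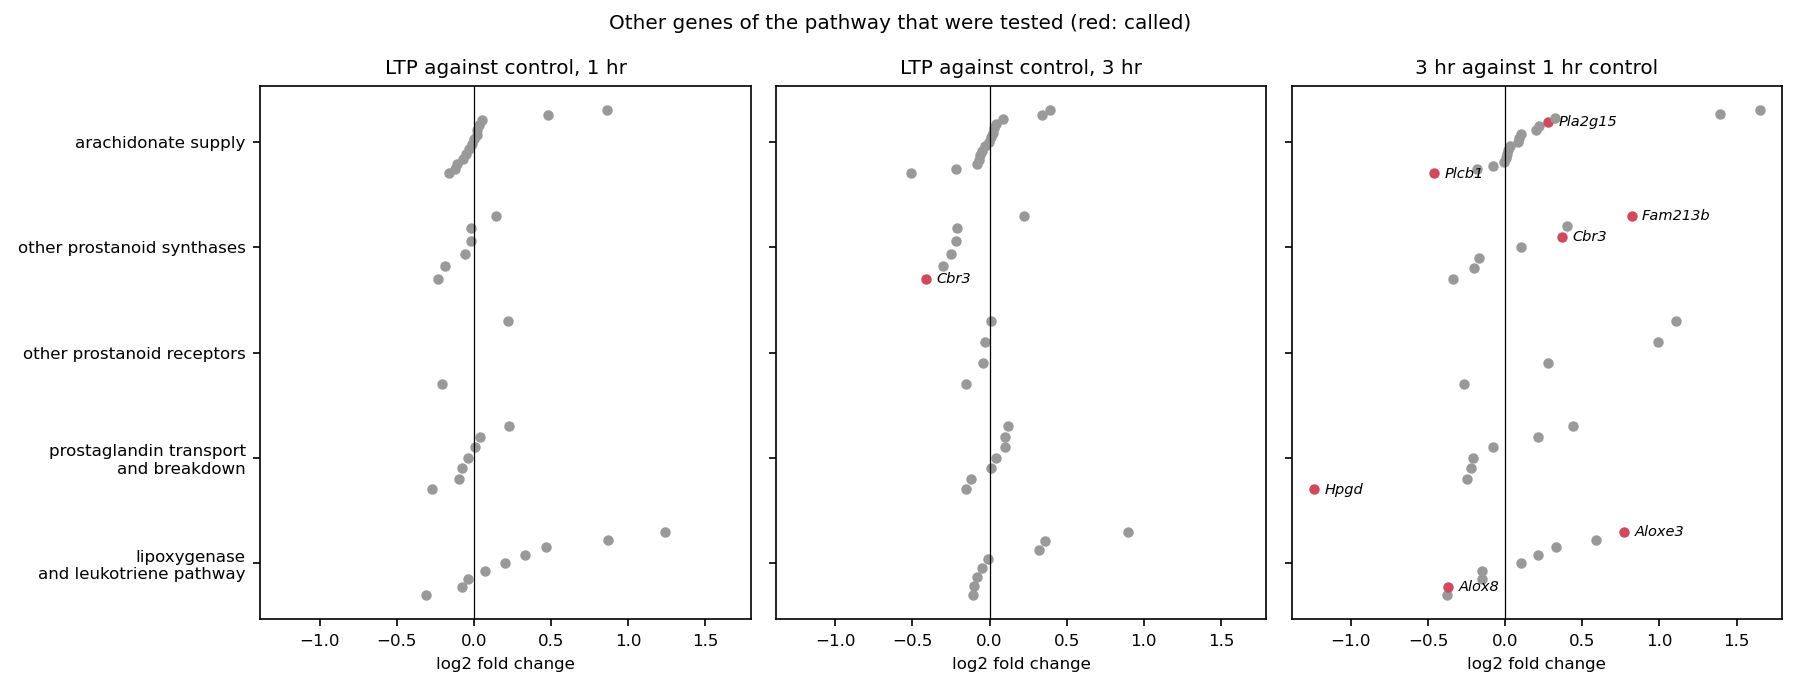
Log2 fold changes of the other pathway genes that were tested, in 5 lists, for LTP against control at 1 hr and 3 hr and for 3 hr against 1 hr control, with called genes in red and named. After LTP edgeR calls Cbr3 alone, at 3 hr (-0.41), and between the controls Hpgd lies lowest among the genes called (-1.24).

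The genes whose log2 CPM followed each changed member most closely were listed by Pearson r across the 11 fitted libraries, among 14111 genes. The libraries share their groups, so r describes the same group differences as above. For Ptgs2 they were Gm17024 (r 0.984), 1700016P03Rik (0.983), Ppp1r15a (0.973), Egr2 (0.967) and Errfi1 (0.961). For Ptges they were Icam1 (0.985), Ch25h (0.982) and Nfkbia (0.98), and for Ptger4 Syne3 (0.966), Gadd45b (0.95) and Plk3 (0.946). No gene was shared between these 3 sets, but sets this short out of 14111 genes leave little room for sharing.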

How the data were processed

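Ribosome-depleted total RNA of hippocampal mini-slices was sequenced from stranded libraries. Per the study's methods, the authors aligned reads with STAR to GRCm38/mm10 and counted them per gene with Bioconductor packages, and they deposited raw counts, 1 table per time point, not normalized. The study's text speaks of reads in coding regions, whereas the tables also hold counts for non-coding genes, so whether untranslated exons were counted is not settled. The annotation release and the use of strand in counting are not given in the sources used here. The submitters' processing notes name mm10 and DESeq2.

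Of 41091 gene IDs 40217 matched GENCODE M21, which gave names, positions and exonic lengths. Counts were tested with edgeR 4.0.16 in R 4.3.3 (filterByExpr, TMM, quasi-likelihood F test, Benjamini-Hochberg over all genes tested), called at adjusted p under 0.1 and fold change over 1.2, with no fold minimum for the difference between LTP effects. The 1 hr fit used 5 libraries, the 3 hr fit 6, and the other comparisons all 11 in 1 fit. CPM used TMM scaling over 12 libraries. The scripts were tested on simulated data. Alternatives were DESeq2 1.42.0, limma-voom (limma 3.58.1), other scalings and filters, all libraries, a replicate block and each library left out. Per the labels, libraries of 1 number at a time point come from 1 animal. The correlations of paired deviations from group means were -0.017, -0.134 and 0.074 at 1 hr and 0.03, -0.038 and 0.194 at 3 hr, over 18240 genes. The labels do not say whether the same animals served both times. The study chose its samples by qPCR of activity genes.

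The members and lists were chosen with earlier results of these data known. Named were the 10 members, pathway genes called by edgeR in any comparison, Pla2g4a, Mgll, Hpgd and Slco2a1, and the genes of highest r (5 for Ptgs2, 3 for other called members; mean CPM of at least 1). Ptgs2os, Myh11, Dagla, Tbxa2r, Pla2g4b and the C/EBP letters fall outside this rule and were chosen after their values were seen. Opposite-strand overlaps were taken from GENCODE M21, and 1 of them is not reported here.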

Additional observations from a re-analysis of the deposited data

How the results depend on the processing

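No called member lost its call under any alternative that could be fitted. Ptgs2 stayed between 0.93 and 1.09 (log2) at 1 hr and between 0.59 and 0.69 at 3 hr, with adjusted p (edgeR, DESeq2 or limma) up to 0.00116 and 0.0317. Between the controls, Ptges stayed between 1.11 and 1.36 and Ptger4 between 0.35 and 0.53. Of 637 alternative values of the members, 591 kept their direction and side of the threshold, 17 newly passed and 29, all of uncalled members, changed sign. The cause of these changes was not tested.

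The members called between the controls numbered 4 with no filter and with at least 10 counts in every library, and 2 to 4 when a library was left out. At 3 hr after LTP they numbered 1 to 2 in that way, the second being Ptges without the 3 hr control of animal 1.

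With the replicate block, Ptges2 at 1 hr became 0.03, Ptgds at 1 hr -0.01 and Ptges for the difference between LTP effects 0.03, and the block changed no call. With all libraries the last 2 were -0.01 and 0.02, and with all libraries and the block -0.01 and 0.03. Ptgds at 1 hr was -0.000161 with no filter and Ptger1 at 3 hr -0.00385 with limma-voom. Between the controls the block could not be fitted, since each time point was assumed to have its own animals, and animals are then nested in time.

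With 1 library left out in turn, values that changed sign in any such fit ranged as follows. At 1 hr they were Ptges2 -0.13 to 0.03, Ptges3 -0.06 to 0.02, Ptgds -0.17 to 0.2 and Ptger2 -0.91 to 0.36. At 3 hr they were Ptgds -0.14 to 0.05, Ptger1 -0.16 to 0.2, Ptger2 -0.38 to 0.42 and Ptger3 -0.34 to 0.05. For the difference they were Ptges -0.24 to 0.03, Ptgds -0.28 to 0.09 and Ptger2 -0.28 to 0.99. Between the controls they were Ptger2 -0.29 to 0.98.

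Over all genes, 1 hr calls numbered 347 with no filter and 69 to 344 without 1 library (69 without 1 hr control 1, 78 without control 3, 92 without LTP 1, 344 without LTP 3), and 3 hr calls 228 to 2170 (228 without 3 hr control 2, 313 without control 1, 331 without LTP 1, 415 without control 3, 2170 without LTP 2). Calls for the difference numbered 80 with DESeq2, 102 with no filter, 7 with all libraries and the replicate block, and 1 to 67 without 1 library. The replicate block gave 206, 1662 and 13 calls. The 1 hr tests rest on 2 control libraries, and Ptger1, Ptger2 and Ptger3 had 6 to 42 counts in each of the 11 fitted libraries.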
